A study of Mus musculus with 12 samples.

Results

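The mitochondrial respiratory chain subunits described here are the proteins of complexes I to IV and of ATP synthase (complex V) that are encoded in the nucleus. They were found by the gene name attached to each probe, taking names that start with Ndufa, Ndufb, Ndufc, Ndufs, Ndufv, Sdha to Sdhd, Uqcr, Cox4 to Cox8 or Atp5. The names gave 92 genes of the 31791 on the array, and 89 of them were tested among 19497 genes whose brightest probe stood well above background on at least 3 arrays. Of the 92 genes, 82 encode subunits and 79 of these were tested: 36 of complex I, 4 of complex II, 8 of complex III, 16 of complex IV and 15 of complex V. The 3 untested genes are tissue isoforms of complex IV: Cox7b2 stood well above background on 1 array, and Cox8b and Cox8c on 0. The other 10 genes share only the start of the name. They are the assembly factors Ndufaf1 to Ndufaf4, Sdhaf1 and Sdhaf2, the supercomplex factor Cox7a2l, and Cox4nb, Atp5s and Atp5sl, which now carry the names Emc8, Dmac2l and Dmac2.

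Complexes I and II pass electrons from NADH and succinate to ubiquinone, complex III passes them on to cytochrome c, and complex IV gives them to oxygen. Complexes I, III and IV pump protons across the inner mitochondrial membrane, and complex V uses the returning protons to make ATP. Hepatocytes are rich in mitochondria and depend on this chain for urea synthesis, gluconeogenesis and bile acid transport. Bile duct ligation (BDL) blocks the outflow of bile and is a common model of cholestatic liver injury and fibrosis.

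Liver RNA came from 12 mice, each on its own one-colour array, in 4 groups of 3. The groups were sham-operated wild-type (WT, FSAP+/+) mice, ligated WT mice, sham-operated FSAP-/- mice and ligated FSAP-/- mice. FSAP, the factor VII activating protease encoded by Habp2, is a plasma protease made in the liver. Knockout mice had been backcrossed to BalbC for 3 generations (F3), and all 4 groups share this background, which is not fully inbred. Animals were littermates from heterozygous crosses, used at 20 to 30 weeks of age, and livers were taken 2 weeks after surgery. The labels give neither the sex of the mice nor the part of the gene that was deleted. The question was how each complex compared between ligated and sham-operated livers within a genotype, and between genotypes.

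Signals are given as log2 of the processed signal minus the log2 75th percentile of the same array, so 0 is the 75th percentile and 1 unit is 2-fold. They compare a probe between arrays and not 1 gene with another. Habp2 lay between 4.97 and 5.50 on the 6 WT arrays and between -7.18 and -3.45 on the 6 FSAP-deficient arrays, the highest of these being replicate 1 of the sham-operated group. Y-linked probes stood above background on that array and on 2 of the ligated FSAP-deficient arrays. Xist measured -7.52 on that array and -7.14 and -6.97 on those 2. It stood well above background on the other 9 arrays, at -1.53 to 0.07. By these markers 1 sham and 2 ligated FSAP-deficient mice were male and the 6 WT mice were not. Sex and genotype are thus partly confounded, and a term for Y-linked signal is among the alternatives. The 8 hepatocyte markers, Alb and Apoa1 among them, stood well above background on all 12 arrays. Between 54.55% and 62.29% of spots per array stood well above background. The arrays were on 4 slides. Slide 1 held the 3 WT sham arrays and 1 WT ligated array, slide 2 held 2 WT ligated arrays and 1 FSAP-deficient sham array, slide 3 held 1 FSAP-deficient sham array and the 3 FSAP-deficient ligated arrays, and slide 4 held replicate 1 of the FSAP-deficient sham group alone. That array was scanned on another day and lay apart on the second principal component, at -70.84 against -37.49 to 26.8 for the others.

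Transcripts of all 5 complexes were lower after ligation in both genotypes. In WT livers 66 of 79 subunit genes fell and 0 rose (limma, Benjamini-Hochberg adjusted p under 0.05), with a median log2 change of -0.69. In FSAP-deficient livers 73 of 79 fell and 0 rose, with a median of -0.78. The change had a negative sign for 76 of 79 subunits in each genotype. The medians of all tested genes were -0.03 and -0.16, and 17.7% fell and 15.2% rose in WT, against 22.9% and 16.2% in FSAP-deficient livers. Over the 89 genes with these names, 69 fell and 1 rose in WT (median -0.66), and 79 fell and 0 rose in FSAP-deficient livers (median -0.76).

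The fall was spread over the complexes. In WT livers 30 of 36 genes of complex I fell (median -0.68), as did 4 of 4 of complex II (median -0.87), 8 of 8 of complex III (median -0.76), 12 of 16 of complex IV (median -0.59) and 12 of 15 of complex V (median -0.63). The counts in FSAP-deficient livers were 35 of 36 (median -0.87), 4 of 4 (median -1.001), 8 of 8 (median -0.84), 12 of 16 (median -0.72) and 14 of 15 (median -0.76), in the same order. The 3 ligated and 3 sham arrays did not overlap for 75 of the 79 subunits in WT and for 74 in FSAP-deficient livers. Over all tested genes this held for 52.1% in WT and 47.4% in FSAP-deficient livers.

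**Figure D1:**
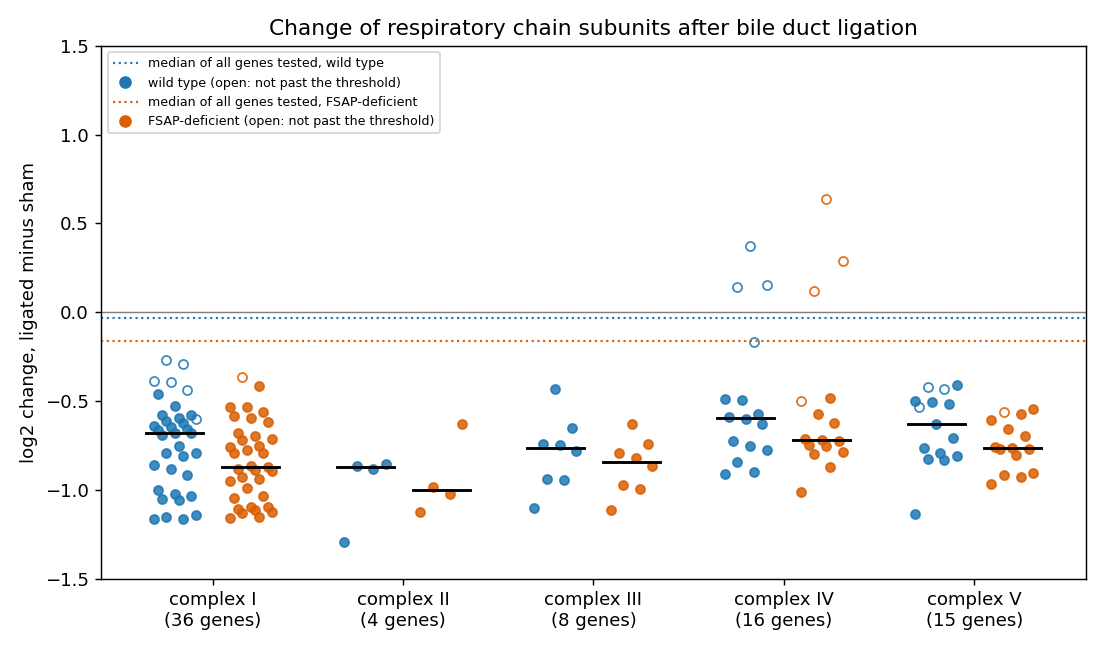
Log2 change after ligation (ligated minus sham, vertical axis) of each tested subunit gene, grouped by complex I to V, in WT and FSAP-deficient livers. Filled points passed the adjusted threshold and open points did not; all points of complexes I, II, III and V lie below 0, and the lowest is Sdhb of complex II in WT (-1.30). Bars mark medians and dotted lines the median of all tested genes.

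Array by array, the median over the 79 subunits, taken against the WT sham mean of each gene, was -0.81, -0.71 and -0.62 in the 3 ligated WT livers and -0.76, -0.65 and -0.96 in the 3 ligated FSAP-deficient livers. It was 0.17, -0.08 and -0.05 in the FSAP-deficient sham livers. All 6 ligated arrays therefore lay below all sham arrays. Complex II had the lowest median of the 5 complexes on 5 of the 6 ligated arrays, the exception being replicate 3 of the WT group, where complex III (-0.71) was as low as complex II (-0.70). Complex IV had the highest median on 6 of 6. Without its tissue isoforms, the 11 common subunits of complex IV had a median change of -0.63 in WT and -0.75 in the knockout. The medians of complex V were -0.63 and -0.76. On ligated FSAP-deficient replicates 1 and 2 these common subunits (-0.68 and -0.63) still lay above every other complex. On the other ligated arrays complex V lay higher. These orders were not tested.

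**Figure D2:**
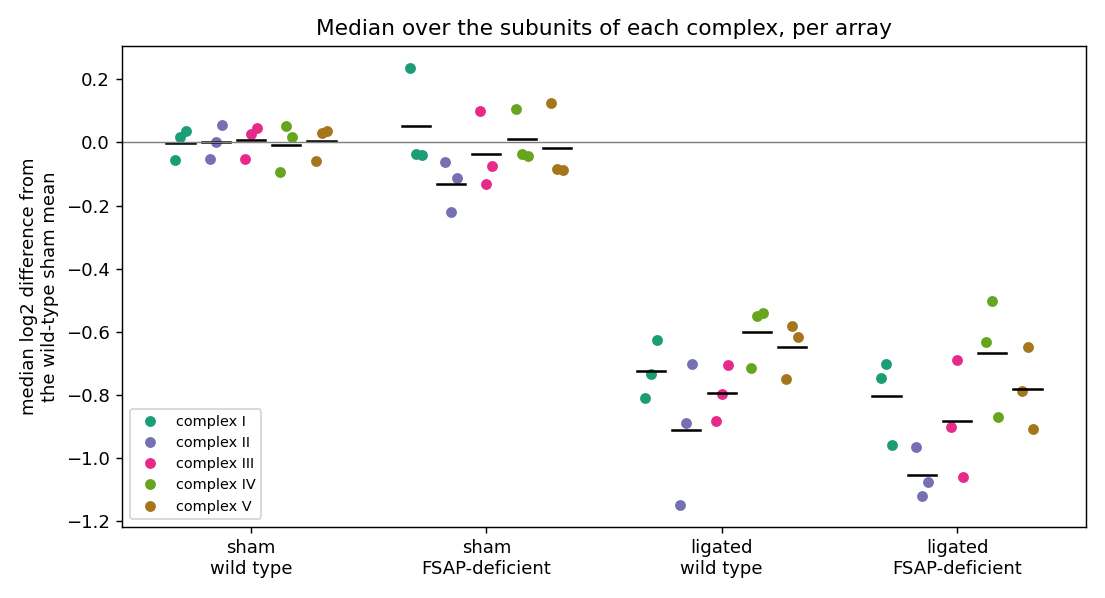
Median over the genes of each complex, as log2 difference from the mean of the WT sham arrays (vertical axis), on each of the 12 arrays in their 4 groups; bars are group means. The ligated arrays lie between -1.15 and -0.50, below every sham array, and complex II is lowest on 5 of the 6.

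The size of the fall depended on how the arrays were scaled. With the 75th percentile the subunit median minus the median of all genes was -0.66 in WT and -0.62 in FSAP-deficient livers. Scaling to the array median moved the median of all genes to -0.19 and -0.36. It shifts every gene of an array alike, so these differences stayed at -0.66 and -0.62 by construction. Quantile normalization, which forces the same distribution of signals on every array, gave differences of -0.44 and -0.28, and 44 and 42 of the 89 genes fell. The matching shares of all genes that fell were 16.1% and 20.1%. Under quantile normalization 76 of 79 subunits still had a negative sign in each genotype, and the complex medians ran from -0.62 for complex II to -0.31 for complex IV in WT and from -0.60 for complex II to -0.29 for complex V in FSAP-deficient livers.

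Most of these genes have bright probes, and 62 of the 89 were among the brightest 10% of all tested genes. In this class the median change over all genes was -0.14 in WT and -0.34 in FSAP-deficient livers and 27.3% and 38.7% of genes fell, while the 62 had medians of -0.74 and -0.79 and 57 and 59 of them fell. Cytosolic ribosomal proteins, another set of bright housekeeping genes, were set beside the subunits. That they stay constant after ligation was not tested. In WT 1 of 46 rose and 0 fell (median 0.11), and in FSAP-deficient livers 0 rose and 1 fell (median 0.05). These medians turned to -0.05 and -0.15 with median scaling and were 0.41 and 0.49 with quantile normalization. Under the 4 settings, the subunit median minus the ribosomal median was between -0.85 and -0.80 in WT. It was between -0.87 and -0.80 in FSAP-deficient livers. Median scaling shifts every gene of an array alike, so it left this difference at -0.80 and -0.83 by construction. Quantile normalization, which could change it, gave -0.85 and -0.87, and normexp background correction gave -0.81 and -0.80. Array by array this difference varied more, from -1.02 to -0.71 over the ligated WT arrays and from -1.30 to -0.47 over the ligated FSAP-deficient arrays, against -0.08 to 0.05 over the sham arrays. The share of all tested genes that fell in both genotypes under all 4 settings was not counted. It is at most 16.1%, the share that fell in WT with quantile normalization. Of the 89 genes, 33 fell in both genotypes under all 4 settings. These were 17 of complex I, 3 of complex II, 5 of complex III, 2 of complex IV, 4 of complex V and 2 of the others. Among them were the core subunits Ndufs1, Ndufs3, Ndufs7 and Ndufs8 of complex I, Sdha, Sdhb and Sdhd, Uqcrc1, Uqcrc2 and Uqcrfs1, Cox5b, and Atp5c1, but not, for example, Cox4i1, Cox5a, Atp5a1, Atp5b or Atp5o.

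**Figure D3:**
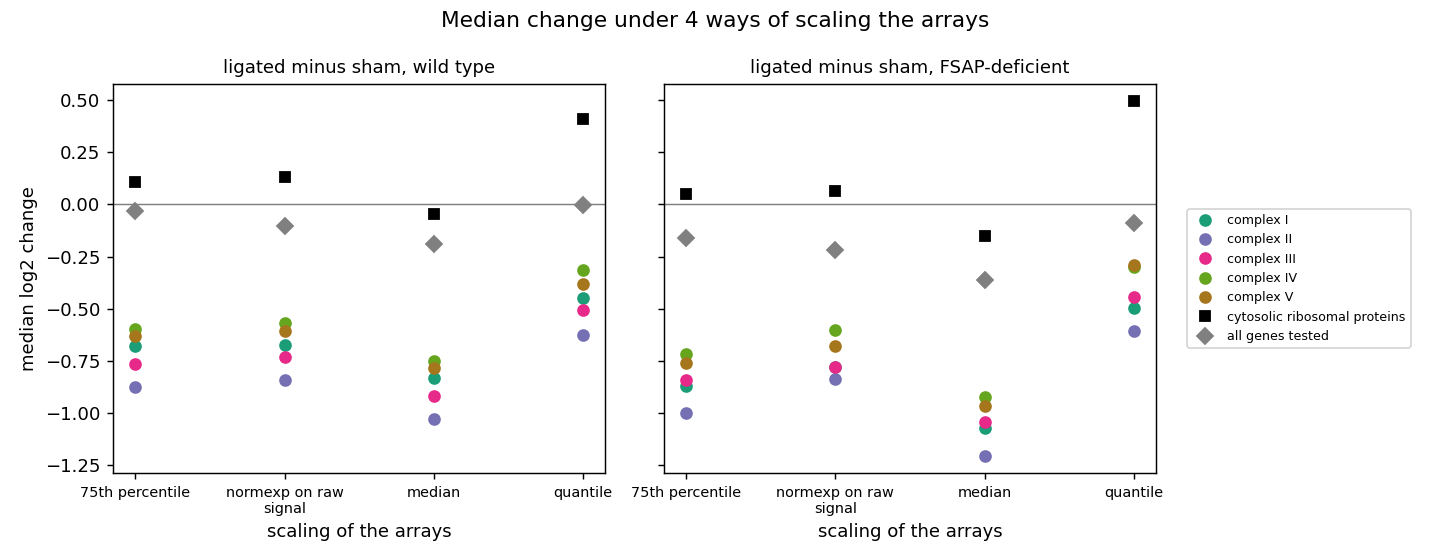
Median log2 change after ligation (vertical axis) of each complex, of cytosolic ribosomal proteins and of all tested genes under 4 ways of scaling the arrays, in WT (left) and FSAP-deficient livers (right). The complexes lie below all genes and below the ribosomal proteins in each of the 8 columns, and nearest to 0 with quantile normalization. Median scaling shifts every gene of an array alike, so its columns repeat the order of the percentile-scaled columns by construction.

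Slides were unevenly split between groups. Within slide 1, the single ligated WT array gave a subunit median of -0.81 against the 3 WT sham arrays, and 60 of the 89 genes fell, against 14.6% of all genes. Within slide 3, the 3 ligated FSAP-deficient arrays gave a subunit median of -0.72 against the single sham array and 77 of 79 subunits had a negative sign, but 0 genes passed the adjusted threshold and 31 had an unadjusted p under 0.05 (limma), or 34.8% of them against 25% of all genes. Over all genes the same comparison called 1.6% lower and 4.25% higher. Tests with 1 array on a side assume that it varies like the others. With slide as a fixed term, 47 genes fell in WT and 41 in FSAP-deficient livers, against 9.12% and 11% of all genes. With slide as a random block 68 and 78 fell, against 16.7% and 22.3% of all genes. Without the FSAP-deficient sham array that stood alone on slide 4, 65 genes fell in FSAP-deficient livers, against 20.7% of all genes. The subunit median was then -0.70.

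Complex I takes electrons from NADH, and its 7 nuclear core subunits together carry the flavin and the iron-sulphur clusters. Ndufs1, the 75 kDa iron-sulphur subunit (probe at chr1:63190360-63190419, mm9), measured 4.71, 4.64 and 4.63 in WT sham livers and 3.62, 3.83 and 4.10 in ligated WT livers. FSAP-deficient livers measured 4.77, 4.67 and 4.69 after sham surgery and 3.78, 3.61 and 3.64 after ligation. Each ligated array lay below each sham array. The log2 change was -0.81 ± 0.14 (SE, adjusted p = 0.00153) in WT and -1.03 ± 0.14 (adjusted p = 0.000299) in FSAP-deficient livers.

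Ndufs3, a core subunit of the arm that faces the matrix, measured 5.66, 5.63 and 5.67 in WT sham livers and 4.41, 4.74 and 4.66 after ligation, against 5.70, 5.57 and 5.64 and then 4.90, 4.69 and 4.49 in FSAP-deficient livers. The groups did not overlap in either genotype, and the changes were -1.06 ± 0.14 (SE) and -0.94 ± 0.14. Ndufs7 and Ndufs8, which hold the clusters next to ubiquinone, fell by 0.65 and 0.91 in WT and by 1.04 and 0.99 in FSAP-deficient livers. Ndufv1, which binds NADH and the flavin, fell by 0.58 and 0.88, and its partner Ndufv2 by 0.64 and 0.75; without WT sham replicate 2 or WT ligated replicate 2 the fall of Ndufv1 in WT was not called.

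The 29 accessory subunits of complex I, which stabilise and assemble the enzyme, had medians of -0.68 in WT, where 24 fell, and -0.79 in FSAP-deficient livers, where 28 fell. The largest falls of the complex were in this class. Ndufb10 of the distal membrane arm measured 5.91, 5.99 and 6.13 in WT sham livers and 4.61, 4.96 and 4.97 after ligation. The FSAP-deficient values were 6.42, 5.83 and 5.94 and then 4.91, 5.14 and 4.67. It fell by 1.16 ± 0.19 (SE) in both genotypes, with adjusted p values of 0.00119 and 0.001, and no ligated array reached the lowest sham array. Ndufb9 fell by 1.16 and 1.10, Ndufa5 by 1.15 and 1.10, and Ndufb3 by 1.02 and 1.16, in WT and FSAP-deficient livers. Ndufb11, which is X-linked, fell by 1.14 ± 0.13 in WT and 1.13 ± 0.13 in FSAP-deficient livers. In WT the accessory subunits that did not pass were Ndufa2, Ndufa8, Ndufa11, Ndufab1 and Ndufs4, with changes between -0.44 and -0.27. In FSAP-deficient livers the single one was Ndufa7, at -0.36 (adjusted p = 0.11), which fell by 0.68 in WT.

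Complex II, succinate dehydrogenase, is shared by the chain and the tricarboxylic acid cycle, is encoded wholly in the nucleus and pumps no protons. Sdhb, its iron-sulphur subunit (probe at chr4:140535052-140535108, mm9), had the largest fall of any subunit in WT. It measured 6.47, 6.54 and 6.61 in WT sham livers and 5.01, 5.33 and 5.40 after ligation. The FSAP-deficient values were 6.50, 6.31 and 6.39 and then 5.43, 5.34 and 5.06. The lowest sham value was 6.31 and the highest ligated value 5.43. The change was -1.30 ± 0.15 (SE, 2.45-fold lower, adjusted p = 0.000143) in WT and -1.12 ± 0.15 (2.18-fold lower, adjusted p = 0.000285) in FSAP-deficient livers.

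Sdha, the flavoprotein that oxidises succinate, measured 4.80, 4.75 and 4.83 in WT sham livers and 3.63, 3.90 and 4.19 after ligation. In FSAP-deficient livers the values were 4.97, 4.58 and 4.72 and then 3.97, 3.60 and 3.65. Its groups did not overlap, and it fell by 0.88 ± 0.18 (SE) in WT and 1.02 ± 0.18 in FSAP-deficient livers. The membrane anchors, which bind ubiquinone, fell too: Sdhc by 0.85 in WT and 0.63 in FSAP-deficient livers, and Sdhd by 0.86 and 0.98. Sdhaf1 and Sdhaf2 insert the iron-sulphur clusters and the flavin. Sdhaf1 measured 2.02, 1.93 and 1.95 in WT sham livers and 2.50, 2.24 and 2.44 after ligation, and it was the 1 gene of the 89 that rose, by 0.43 ± 0.12 (adjusted p = 0.0209). In FSAP-deficient livers its change was 0.03, and the rise in WT was not called under median scaling, without a filter on dim probes, with slide as a fixed term, within slide 1, or without WT ligated replicates 1 or 3 or WT sham replicates 2 or 3. Sdhaf2 had a change of -0.39 (adjusted p = 0.0694) in WT and fell by 0.61 in FSAP-deficient livers.

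Complex III hands electrons from ubiquinol to cytochrome c, and all 8 of its measured genes fell in both genotypes. Under all 4 settings of scaling and background correction, 5 of the 8 were called lower in both genotypes, against at most 16.1% of all tested genes. Uqcrfs1, the Rieske iron-sulphur protein, measured 5.25, 5.29 and 5.35 in WT sham livers and 4.29, 4.64 and 4.73 after ligation, and 5.42, 5.16 and 5.27 and then 4.36, 4.26 and 4.24 in FSAP-deficient livers. It fell by 0.74 ± 0.14 (SE) in WT and 1.00 ± 0.14 in FSAP-deficient livers, with no overlap. The core proteins Uqcrc1 and Uqcrc2 fell by 0.94 and 0.78 in WT and by 0.87 and 0.97 in FSAP-deficient livers. At the ends of the range in WT were Uqcrb, which binds near the ubiquinone site and fell by 1.11 in both genotypes, and Uqcrq, which fell by 0.43 in WT and 0.80 in FSAP-deficient livers. The fall of Uqcrq in WT was called in 6 of the 12 fits that left out 1 array. Uqcrb and Uqcrq were picked out after their values were seen.

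Complex IV, cytochrome c oxidase, has a catalytic core made in the mitochondrion and nuclear subunits around it, several of them in tissue-specific forms. Its 11 common nuclear subunits all fell in both genotypes. Cox5b measured 5.47, 5.53 and 5.51 in WT sham livers and 4.69, 4.76 and 4.82 after ligation. FSAP-deficient livers measured 5.48, 5.50 and 5.48 and then 4.69, 4.98 and 4.42. The sham values lay close together and above all ligated values, and the changes were -0.75 ± 0.15 (SE) and -0.79 ± 0.15. Cox5a fell by 0.57 in WT and 0.87 in FSAP-deficient livers, and Cox4i1, the ubiquitous form of the subunit through which ATP inhibits the enzyme, by 0.49 and 0.72. Cox6a1, Cox6b1, Cox7a2, Cox7b and Cox8a, the forms used in liver, fell by 0.50 to 0.77 in WT and by 0.57 to 0.80 in FSAP-deficient livers. Ndufa4, now counted with complex IV despite its name, fell by 0.60 and 0.62. In WT several of these calls needed all arrays: Cox5a was lost without ligated replicate 1 or sham replicates 1 or 3, Cox4i1 without ligated replicate 2 or sham replicates 2 or 3, Ndufa4 without ligated replicates 1 or 2 or sham replicates 2 or 3, and Cox6b1 without any 1 of the 6 WT arrays or FSAP-deficient sham replicates 2 or 3. Ndufa4 in FSAP-deficient livers was lost without sham replicate 1 or ligated replicates 1 or 2.

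The tissue and hypoxia isoforms of complex IV behaved less uniformly. Cox7a1, the heart and muscle form, measured -0.24, 0.21 and -0.07 in WT sham livers and -1.39, -0.70 and -0.54 after ligation, a fall of 0.84 ± 0.24 (SE, adjusted p = 0.0189) that was not called without ligated replicate 1 or sham replicate 2. In FSAP-deficient livers its change was -0.50 (adjusted p = 0.119). Cox6a2, another muscle form, changed by -0.17 and 0.29, and Cox6b2, the testis form, by 0.14 and 0.12, none past the threshold. Cox4i2, a form linked to low oxygen, changed by 0.15 (adjusted p = 0.526) in WT and fell by 0.49 ± 0.17 (adjusted p = 0.0416) in FSAP-deficient livers. The fall was not called without any 1 of 8 arrays: WT sham replicates 1 and 3, WT ligated replicates 2 and 3, FSAP-deficient sham replicates 1 and 2, and FSAP-deficient ligated replicates 1 and 3. Ndufa4l2, a hypoxia-induced relative of Ndufa4, showed 1 high liver per genotype: the ligated WT livers measured -1.84, 0.05 and -1.63 and the ligated FSAP-deficient livers -1.73, -1.71 and 0.39, against -1.83 to -1.41 over the 6 sham livers. Its group changes of 0.38 and 0.64 had adjusted p values of 0.66 and 0.415.

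Complex V makes ATP with a soluble F1 head and a membrane rotor. Atp5b, the catalytic beta subunit, measured 7.40, 7.52 and 7.43 in WT sham livers and 6.99, 7.14 and 6.99 after ligation. FSAP-deficient livers measured 7.56, 7.36 and 7.47 and then 6.87, 6.69 and 6.54. Ligated and sham arrays did not overlap, and the falls of 0.41 ± 0.13 (SE, adjusted p = 0.0346) in WT and 0.76 ± 0.13 (adjusted p = 0.00119) in FSAP-deficient livers were both called. The alpha subunit Atp5a1 fell by 0.51 and 0.76, the gamma shaft Atp5c1 by 0.83 and 0.97, and Atp5o of the stalk by 0.50 and 0.61. Of the central stalk, Atp5d had a change of -0.42 (adjusted p = 0.108) in WT and fell by 0.57 in FSAP-deficient livers, and Atp5e had changes of -0.54 (adjusted p = 0.0735) and -0.56 (adjusted p = 0.0558). The 3 genes Atp5g1, Atp5g2 and Atp5g3 encode the same mature rotor ring protein. Atp5g2 fell by 0.51 and 0.54 and Atp5g3 by 0.71 and 0.80 in WT and FSAP-deficient livers, while Atp5g1 had a change of -0.43 (adjusted p = 0.164) in WT and fell by 0.77 in FSAP-deficient livers. Several WT calls of this complex needed all arrays: Atp5b was lost without any 1 of the 6 WT arrays or FSAP-deficient sham replicate 3, Atp5o without any WT array but ligated replicate 3, Atp5a1 without sham replicate 2, and Atp5g3 without ligated replicate 1 or sham replicate 3. In FSAP-deficient livers Atp5d was lost without sham replicates 1 or 2 or ligated replicates 1 or 3, and Atp5g1 without sham replicate 1 or ligated replicates 1 or 3.

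**Figure D4:**
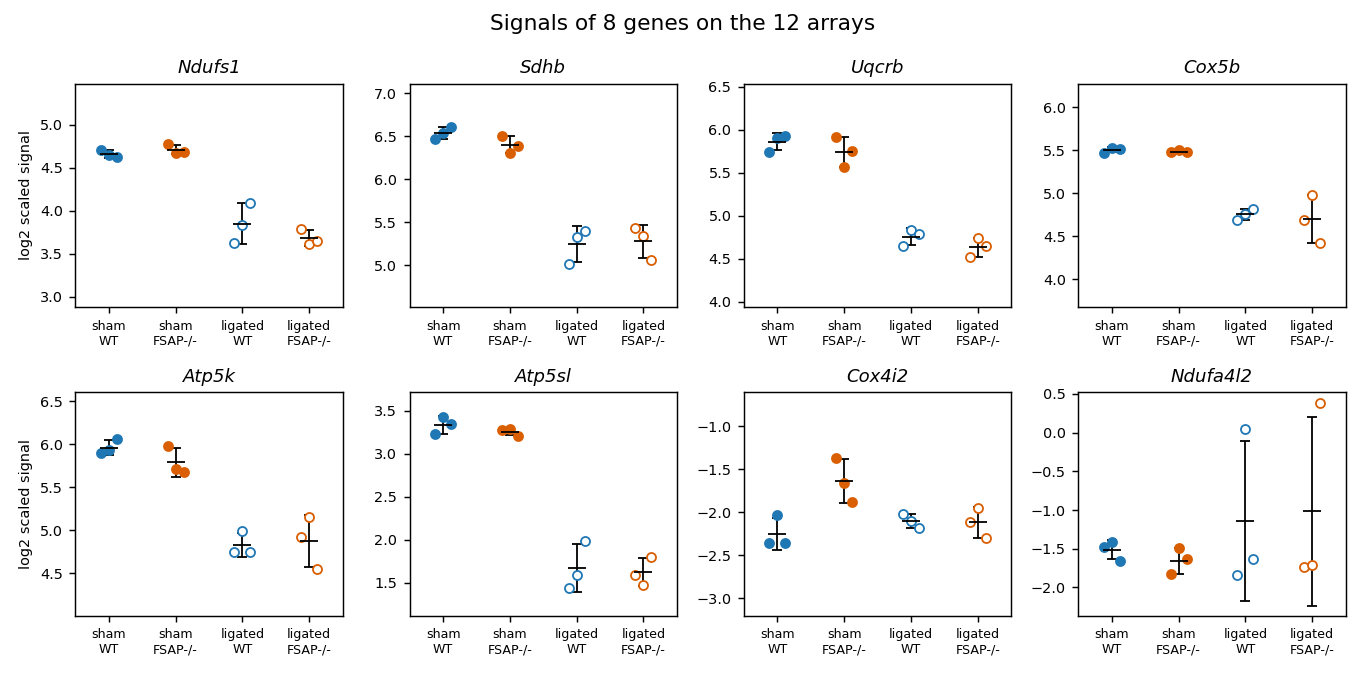
Log2 scaled signal (vertical axis) of 8 genes on the 12 arrays, 1 panel a gene and 1 point an array, in the 4 groups. Bars are mean ± SD. Sham and ligated points are apart for the upper genes and for Atp5k and Atp5sl, for example Sdhb (6.31 to 6.61 against 5.01 to 5.43), and Cox4i2 and Ndufa4l2 show the mixed pattern of the isoforms.

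Among the genes that share only the name, Atp5sl, now Dmac2, a factor for assembly of the membrane arm of complex I, had the largest fall of all 89. It measured 3.23, 3.43 and 3.35 in WT sham livers and 1.44, 1.59 and 1.98 after ligation, and 3.28, 3.29 and 3.21 and then 1.58, 1.48 and 1.80 in FSAP-deficient livers. This was a fall of 1.66 ± 0.16 (SE, 3.17-fold, adjusted p = 4.77e-05) in WT and 1.64 ± 0.16 (3.11-fold, adjusted p = 4.9e-05) in FSAP-deficient livers, with no overlap. Ndufaf1, a chaperone of complex I assembly, fell by 0.83 and 1.31. Of the 10 such genes, 3 fell and 1 rose in WT and 6 fell in FSAP-deficient livers. Among all tested genes 17.7% fell and 15.2% rose in WT, and 22.9% fell in FSAP-deficient livers.

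Promoters of these genes are known for binding sites of a few activators of nuclear respiratory genes, so their sequences were set beside the joint fall. RefSeq promoter windows (GRCm38.p6, 250 bases before to 50 after a start site) were matched for 67 of the 82 subunit genes, in 72 windows of 300 bases. The letters searched on both strands were GCGCATGCG for NRF1, CCGGAAG for GABPA, TCAAGGTCA for ERRα and AAGATGGC for YY1. The NRF1 letters stood in 11.1% of the subunit windows and 1.75% of all 32851 windows, the GABPA letters in 22.2% and 8.86%, the ERRα letters in 2.78% and 0.423%, and the YY1 letters in 13.9% and 2.75%. A match is a description of the letters and not a measured binding site, and a link between matches and the fall was not tested. The windows of Ndufb10, Ndufb11, Ndufb3, Ndufa5, Sdha and Uqcrfs1, which fell in both genotypes, hold none of these letters. Atp5e holds the GABPA letters and was called in neither genotype, and Ndufa8 and Ndufa11 hold the NRF1 letters and were not called in WT. One stretch per complex is shown, the 120 bases before the start of a gene that fell, 5′ to 3′ on the minus strand that carries the gene, with the match in capitals. Ndufs3 (chr2:90904722-90904841), Sdhd (chr9:50603850-50603969), Uqcrh (chr4:116075071-116075190) and Cox6a1 (chr5:115348959-115349078) hold the GABPA letters, read forward or on the other strand. Atp5g2 (chr15:102671048-102671167) holds the NRF1 letters on both strands, overlapping over 10 capitals.
Ndufs3: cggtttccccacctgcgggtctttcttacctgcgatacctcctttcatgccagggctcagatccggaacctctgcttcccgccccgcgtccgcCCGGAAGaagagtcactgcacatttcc
Sdhd: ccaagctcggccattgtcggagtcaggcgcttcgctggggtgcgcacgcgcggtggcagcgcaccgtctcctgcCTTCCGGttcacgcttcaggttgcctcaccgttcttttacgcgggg
Uqcrh: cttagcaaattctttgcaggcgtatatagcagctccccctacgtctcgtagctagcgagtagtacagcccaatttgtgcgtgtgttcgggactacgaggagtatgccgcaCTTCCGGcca
Cox6a1: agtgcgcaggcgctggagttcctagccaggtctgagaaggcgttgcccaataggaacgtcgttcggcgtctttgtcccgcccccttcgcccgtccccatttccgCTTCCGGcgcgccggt
Atp5g2: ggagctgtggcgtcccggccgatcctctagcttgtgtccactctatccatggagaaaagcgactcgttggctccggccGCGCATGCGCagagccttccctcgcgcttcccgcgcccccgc
Counted from the start, the matches lie at -27 in Ndufs3, -46 in Sdhd, -10 in Uqcrh, -16 in Cox6a1 and -42 in Atp5g2. Of the subunit windows with a motif, 14 of 16 hold the GABPA letters, 10 of 10 the YY1 letters and 6 of 8 the NRF1 letters in the 150 bases nearest the start. Over all windows with the same letters the shares there are 74.4%, 63.1% and 72.9%. Uqcrh, a hinge protein of complex III, fell by 0.75 in WT and 0.82 in FSAP-deficient livers, beside the values of the other 4 genes above.

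The other steps of electron transport gave the following counts, beside 17.7% of all tested genes that fell in WT and 22.9% in FSAP-deficient livers. Of 9 electron carriers and dehydrogenases that feed ubiquinone, 7 fell in each genotype (medians -1.08 and -0.97). Etfa and Etfb, which carry electrons from fatty acid oxidation, fell by 1.28 and 1.11 in WT and by 1.08 and 0.97 in FSAP-deficient livers, their acceptor Etfdh fell by 1.24 and 1.34, and proline dehydrogenase Prodh by 1.08 and 1.66. Cyc1, the haem protein of complex III, whose name the rule does not take, had a change of -0.48 (adjusted p = 0.116) in WT and fell by 1.03 in FSAP-deficient livers. Of 12 subunits encoded in mitochondrial DNA, 2 fell in WT (ATP8 by 0.78 and ND3 by 0.74), near the share of all genes. In FSAP-deficient livers 7 of them fell, among them CYTB by 1.49 and ND4 by 1.23. The array files place 5 of these 12 probes on chromosome 1, where a nuclear copy lies, and the CYTB spot of 1 FSAP-deficient sham array was dropped as an outlier. Of 24 further assembly factors 7 fell in WT and 16 in FSAP-deficient livers, with Surf1 of complex IV falling by 1.19 in both. Coenzyme Q synthesis had 3 of 10 genes fallen in WT, and 6 fallen and 1 risen in FSAP-deficient livers, with Coq10a falling by 1.22 and 1.58.

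Of 18 regulators of mitochondrial biogenesis, 9 fell in WT and 12 in FSAP-deficient livers, against 17.7% and 22.9% of all tested genes. The orphan receptor Esrrg stood well above background on all 6 sham arrays and on 0 ligated arrays, so its fall has only a bound. On each array of the dim group, a bound uses whichever is higher, the probe's value or that of the faintest probe still well above background on that array. A probe not well above background can still lie above that faintest probe, so this and later bounds hold by this rule only. The adjusted p values given with bounds come from the fitted values and do not test the bounds. Esrrg was at least 5.72-fold lower after ligation in WT (adjusted p = 0.001004, limma) and at least 4.17-fold lower in FSAP-deficient livers (adjusted p = 0.000839). The mitochondrial deacetylase Sirt3 fell by 1.44 and 1.43, and the coactivator Ppargc1b by 1.45 and 1.37. Ppargc1a, the coactivator PGC-1α, measured -0.10, 0.51 and 0.19 in WT sham livers and -0.28, -0.40 and -0.23 after ligation, a change of -0.50 with an adjusted p of 0.0599. FSAP-deficient livers measured 0.17, 0.36 and 0.15 and then -1.20, -0.99 and -0.66, a fall of 1.17 (adjusted p = 0.000737). The tricarboxylic acid cycle and pyruvate entry had 10 of 19 genes fallen in WT and 13 in FSAP-deficient livers, among them the pyruvate dehydrogenase component Dlat by 1.28 in WT and isocitrate dehydrogenase subunit Idh3b by 1.30 in FSAP-deficient livers. Mitochondrial ribosomal proteins had 26 of 75 fallen and 3 risen in WT and 45 fallen in FSAP-deficient livers, with Mrpl49 falling by 1.31 and 1.23.

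Some mitochondrial genes rose. Beside them, 15.2% of all tested genes rose and 17.7% fell in WT, and 16.2% rose and 22.9% fell in FSAP-deficient livers. The uncoupling proteins Ucp2 and Ucp3 rose by 1.65 and 1.56 in WT and by 2.27 and 2.33 in FSAP-deficient livers, 2 of 4 in the list. Slc25a4, an ADP/ATP carrier of the inner membrane, rose by 0.73 and 1.09. Of the 23 genes for mitochondrial membranes, import and chaperones, 2 rose and 8 fell in WT and 1 rose and 14 fell in FSAP-deficient livers, the chaperonin Hspd1 falling by 0.86 and 0.87. Of 7 antioxidant enzymes, Gpx4, which reduces lipid peroxides, rose by 0.81 and 0.87, while 4 fell in WT and 5 in FSAP-deficient livers, with thioredoxin reductase Txnrd2 falling by 1.44 and 1.31. The mitophagy list had 1 of 6 risen in WT (Sqstm1 by 0.86) and 1 fallen in FSAP-deficient livers (Pink1 by 0.66). Hypoxia-induced genes went both ways, with 5 of 14 risen and 2 fallen in WT and 2 risen and 4 fallen in FSAP-deficient livers. Atpif1, the inhibitor of complex V, had changes of -0.25 and 0.31, neither called.

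**Figure D5:**
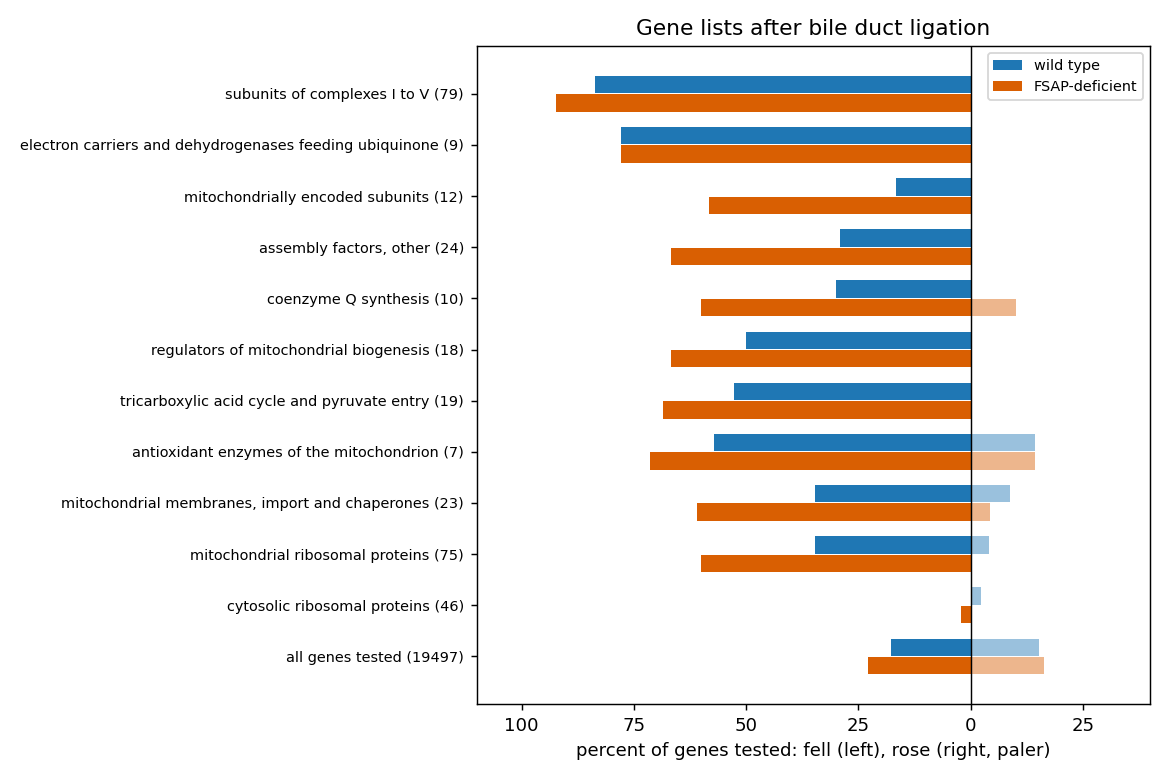
Percent of tested genes that fell (bars to the left) or rose (paler bars to the right) after ligation in each list, with the number of genes tested in brackets, in WT and FSAP-deficient livers. The subunits have 66 and 73 of 79 genes to the left, against 17.7% and 22.9% of all genes.

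Whole liver was measured, so fewer cells of a type and less RNA per cell cannot be told apart. Among all tested genes 17.7% fell and 15.2% rose in WT, against 22.9% and 16.2% in FSAP-deficient livers. Of 8 hepatocyte markers, 1 fell in WT livers (Ttr, by 1.04) and 6 in FSAP-deficient livers, with medians of -0.12 and -0.70. Their median against the WT sham mean ranged from -0.42 to 0.24 over the ligated WT arrays and from -1.06 to -0.41 over the ligated FSAP-deficient arrays. Of 8 cholangiocyte markers 7 rose in each genotype, and the other, the chloride channel gene Cftr, fell by 1.77 and 1.86. Epcam and Elf3 stood well above background on no sham array and Cldn4 on no WT sham array. The median change of the 8 was 3.45 and 3.78, or 3.45 and 3.11 with these genes at their bounds, with fitted array medians of 2.84 to 3.62 in ligated WT and 3.13 to 4.29 in ligated FSAP-deficient livers. Macrophage markers rose for 7 of 8 and 8 of 8 (array medians 1.91 to 2.19 and 2.55 to 3.08), and stellate cell and myofibroblast markers for 4 of 8 and 7 of 8 (array medians 0.47 to 1.30 and 1.33 to 2.74). The part of these cell types in the fall of the subunits was not tested. Of the markers of brown fat, another tissue rich in these genes, Ucp1 stood well above background on 0 arrays and Dio2 on 2, and neither was tested. Cidea stood well above background on 0 sham and all 6 ligated arrays, and was at least 29.3-fold higher in ligated WT (adjusted p = 4.242e-05, limma) and 20.9-fold higher in ligated FSAP-deficient livers (adjusted p = 5.055e-05). Elovl3 went the other way: it was at least 3.38-fold lower in ligated WT livers (adjusted p = 0.03657) and fell by 4.39 in FSAP-deficient livers, where 1 of 3 ligated arrays measured it. So 1 of the 2 tested markers rose and 1 fell in each genotype.

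No respiratory chain gene differed between genotypes after adjustment. In sham livers 0 of the 89 genes were called in either direction (limma), against 0.00513% of all genes higher and 0.0103% lower in FSAP-deficient livers. At an unadjusted p under 0.05 there was 1 gene of the 89, against 7.89% of all genes. The 1 gene was Cox4i2, higher by 0.62 in FSAP-deficient sham livers (adjusted p = 0.293). After ligation 0 were called, against 0.123% of all genes higher and 0.0923% lower, and 3 had an unadjusted p under 0.05, against 12.9% of all genes. These 3 were Atp5b at -0.34, Ndufaf1 at -0.40 and Uqcrq at -0.32, FSAP-deficient minus WT. The difference of the ligation effects between genotypes was tested as an interaction: 0 of the 89 were called, against 0.0103% of all genes upward and 0% downward. At an unadjusted p under 0.05 there were 3 (Cox4i2 at -0.64, Ndufaf1 at -0.48 and Sdhaf1 at -0.39), against 13.7% of all genes. So the larger count in FSAP-deficient livers, 73 against 66 subunits, is not a tested difference, and Cyc1 and Ppargc1a, which passed in that genotype alone, are not shown to differ between genotypes. Sex markers were unevenly split between genotypes. With a term for Y-linked signal 0 of the 89 were called in the sham, ligated or interaction comparison. That interaction called 0.857% of all genes upward and 1.03% downward. Both ligation comparisons share 1 estimate of the spread, from all 12 arrays, and a miss of the threshold with 3 livers a group does not show that genotypes were alike.

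Most genes were represented by 1 probe. Of 24 genes with several tested probes, 22 gave the same call from each probe in WT and 21 in FSAP-deficient livers. The probes disagreed for Cox7c and Uqcr10 in both genotypes and for Ndufv3 in FSAP-deficient livers. In WT the probes of Cox7a2l and of Ndufaf4 differed in sign, none of them called.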

How the data were processed

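Liver RNA of 12 mice (RNA integrity number of at least 7.2, 100 ng labelled with Cy3, per the labels' protocols) was hybridised to one-colour Agilent arrays. The deposited files hold intensity values per spot from Agilent Feature Extraction, already background-corrected by that program in the processed signal, per the file headers; probe positions are on mm9. A table of log2 values that the authors deposited served as an alternative. Arrays have no read depth, so precision is limited by their number, 3 a group, each a mouse of its own.

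Outlier spots were left out, spots of a probe averaged (39429 probes), and log2 of the processed signal was reduced by the array's 75th percentile. Array FSAP-deficient sham replicate 1 was joined by probe name, since its file carries other gene names. Each gene was taken from its brightest probe, kept if well above background on at least 3 arrays. Linear models over all 12 arrays were fitted with limma 3.58.1 in R 4.3.3 (lmFit, eBayes), with Benjamini-Hochberg adjustment over 19497 genes at 0.05 in 5 comparisons; 0.034% of values were missing. "Fell" and "rose" mean past that threshold. The model fit and the adjustment were tested on simulated data with added changes. The outlier, scaling, probe and filter steps were not.

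Genes named are the core subunits, the isoform pairs and the 5 largest called changes per comparison and direction, plus up to 4 called genes per pathway list with Ppargc1a and Cyc1. The values of 1 of these genes are not reported here. The members and lists were chosen with earlier results of these data known. Current symbols were matched for 91 of 92 names, of which 4 had changed. Replicate numbers shared by groups do not pair the mice: deviations of same-numbered arrays correlated between -0.201 and 0.191, those of different numbers between -0.209 and 0.216. Alternatives were other background correction, scaling, filters, probe rules, slide and replicate blocks, a term for Y-linked signal and leaving out each array. Which exon or untranslated part a probe lies in was not analysed here.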

Additional observations from a re-analysis of the deposited data

Results flagged for a closer look

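Cox4i2, the oxygen-linked form of the complex IV subunit 4, had ligation effects of opposite sign in the genotypes, 0.15 in WT and -0.49 in FSAP-deficient livers. The difference of -0.64 (FSAP-deficient minus WT) did not pass the test of the interaction (limma, adjusted p = 0.279). The livers measured -2.36, -2.03 and -2.36 in WT sham, -2.02, -2.10 and -2.19 in WT ligated, -1.37, -1.65 and -1.88 in FSAP-deficient sham and -2.12, -1.94 and -2.29 in FSAP-deficient ligated mice. The FSAP-deficient sham livers thus lay above the other 9 livers, but narrowly, the lowest at -1.88 against -1.94 for the highest of the others. Their highest value, -1.37, is that of replicate 1, the array alone on its slide. The sham groups of the genotypes did not overlap for 17% of all tested genes, and the sham difference of Cox4i2 was not called.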

How the results depend on the processing

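No called value changed sign under any alternative run. The count of genes that rose in WT, 1, went to 0 under median scaling, with no filter, with slide as a fixed term and within slide, and lay between 0 and 1 when single arrays were left out. The count that fell in WT was 44 with quantile normalization and with the authors' deposited log2 table, against 16.1% of all genes in each. It was 55 to 71 without single arrays. Without WT sham replicates 2 or 3 it was 55, against 13.2% and 13.5% of all genes. In FSAP-deficient livers it was 42 with quantile normalization and the authors' table, 41 with slide as a fixed term, 0 within slide 3, and 65 to 79 without single arrays. For FSAP-deficient livers the shares of all genes that fell were 20.1% with quantile normalization and 20.2% with the authors' table. They were 11% with slide as a fixed term and 20.7% without sham replicate 1, where 65 fell. With the replicate block 63 fell in WT and 77 in FSAP-deficient livers, against 16.6% and 21.6% of all genes. Over all genes, median scaling moved the share of calls that were upward from 46.3% to 33.4% in WT and from 41.5% to 28.7% in FSAP-deficient livers. Of the called genes 49 of 70 in WT and 64 of 79 in FSAP-deficient livers were called without each array in turn. Values that turned sign were all uncalled. Apart from the genes listed next, these were Cox7a2l and Ndufaf4 in WT and Cox4nb, Atp5s, Cox7a2l and Ndufa7 in FSAP-deficient livers. With median scaling Cox6b2 was -0.0134 in WT and -0.0837 in FSAP-deficient livers, Cox4i2 -0.0011 in WT and Sdhaf1 -0.167 in FSAP-deficient livers. In FSAP-deficient livers Cox6b2 was also -0.0122 with quantile normalization, -0.016 in the authors' table and -0.0135 with slide as a fixed term and within slide, and Cox6a2 was -0.17 with normexp. Ndufa4l2 in WT was -0.32 with slide as a fixed term and within slide. Without single arrays the ranges were -0.303 to 0.0336 for Cox6a2 and -0.217 to 0.724 for Ndufa4l2 in WT, and in FSAP-deficient livers -0.194 to 0.653 for Cox6a2, -0.0708 to 0.324 for Cox6b2, -0.0649 to 0.997 for Ndufa4l2 and -0.0076 to 0.0861 for Sdhaf1. With a term for Y-linked signal 71 fell in WT and 80 in FSAP-deficient livers, against 18.8% and 23.3% of all genes. The cause of these changes was not tested. Genes near background, such as Cox6a2, are limited by their dim signal, and 3 mice a group limit all.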
